A study of Mus musculus with 8 samples.

Results

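CDK inhibitors and p53 targets were followed in fibroblasts of mouse embryos, cells that make connective tissue, after they had become immortal spontaneously in culture. The members were named by gene: the CDK inhibitors Cdkn1a, Cdkn1b, Cdkn1c, Cdkn2a, Cdkn2b, Cdkn2c and Cdkn2d, the p53 targets Mdm2 and Ccng1, and Trp53, the gene for p53. Every probe set, a group of short probes read together as 1 value, with a member as its single gene symbol was taken. This gave 11 probe sets of 9 genes, among 12422 probe sets and 8251 genes with a single symbol. No probe set had Trp53 as its single symbol in the annotation used, so its transcript is not analysed here. There were 4 groups with 2 Affymetrix arrays each, 8 arrays in all. They were STAT3-/- cells treated with oncostatin M (OSM, a cytokine that signals through STAT3) at 20 ng/ml for 30 minutes, untreated STAT3-/- cells, STAT3+/+ cells with the same OSM treatment, and untreated STAT3+/+ cells. All cells grew in medium with serum. Treatment was taken from the sample titles, because the longer descriptions mention OSM for every sample. The titles also number the arrays of each group 2 and 3, called replicates below, after the words cell line. The labels do not say whether the number marks a line, a culture or a batch, so the p-values reflect only how these arrays vary, and that variation may be technical. Loss of Stat3 and any other difference between the lines cannot be told apart.

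CDK inhibitors bind cyclin-dependent kinases, the enzymes that drive the cell cycle, and hold them inactive. The INK4 proteins, made from the Cdkn2 genes, act on CDK4 and CDK6, while the Cip/Kip proteins, made from the Cdkn1 genes, act on several cyclin-CDK complexes. Cdkn2a also encodes Arf, which blocks Mdm2, the ubiquitin ligase that removes p53, and p53 in turn switches on Cdkn1a, Mdm2 and Ccng1. In cultured mouse fibroblasts, spontaneous escape from senescence commonly involves loss of p53 or of Arf.

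The promoters were read for loose forms of the letters that p53, STAT and E2F factors prefer, with N for any base. These factors link the members to p53, to OSM and to the cell cycle. Each of 12 windows held the 250 bases before an annotated start, from RefSeq on GRCm38.p6. Cdkn1c had none in the table used. The p53 motif CATGNNNNNNCATG was in 1 window, that of the upstream start of Cdkn1a, and in 0.49% of all 32851 windows. The E2F motif TTTNNCGC, searched on both strands, was in 3 windows, against 4.28% of all windows. The STAT motif TTCNNNGAA, which like the p53 motif reads the same on both strands, was in 0 of the 12 windows and in 7.02% of all windows. No motif match overlapped another. The 4 windows with a match are shown 5′ to 3′, with the match in capitals. They are Cdkn1a (chr17:29090729-29090978, plus strand), the upstream start of Cdkn2a, from which Arf is made (chr4:89294620-89294869, minus strand), the downstream start of Cdkn2a, from which p16Ink4a is made (chr4:89282193-89282442, minus strand), and Mdm2 (chr10:117710759-117711008, minus strand).
Cdkn1a: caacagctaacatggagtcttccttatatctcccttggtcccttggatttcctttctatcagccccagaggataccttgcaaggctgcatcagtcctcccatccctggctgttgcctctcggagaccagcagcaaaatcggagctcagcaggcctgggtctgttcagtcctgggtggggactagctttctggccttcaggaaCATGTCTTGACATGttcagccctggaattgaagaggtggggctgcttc
Cdkn2a, upstream start: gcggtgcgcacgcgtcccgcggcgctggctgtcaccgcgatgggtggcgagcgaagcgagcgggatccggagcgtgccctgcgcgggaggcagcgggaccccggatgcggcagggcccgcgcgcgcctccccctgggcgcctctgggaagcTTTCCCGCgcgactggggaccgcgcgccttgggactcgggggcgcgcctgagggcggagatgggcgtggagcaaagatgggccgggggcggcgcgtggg
Cdkn2a, downstream start: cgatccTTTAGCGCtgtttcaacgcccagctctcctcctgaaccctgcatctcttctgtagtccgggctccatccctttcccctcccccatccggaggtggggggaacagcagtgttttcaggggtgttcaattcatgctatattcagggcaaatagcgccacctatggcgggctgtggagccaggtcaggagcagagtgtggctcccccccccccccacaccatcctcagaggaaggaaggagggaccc
Mdm2: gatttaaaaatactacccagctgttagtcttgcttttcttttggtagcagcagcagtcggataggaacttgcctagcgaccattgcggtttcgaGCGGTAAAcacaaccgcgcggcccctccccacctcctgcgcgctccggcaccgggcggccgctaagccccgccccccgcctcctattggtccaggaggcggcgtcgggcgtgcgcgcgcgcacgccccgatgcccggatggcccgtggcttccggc
The matches began 48, 99, 244 and 156 bases before the start, in the order shown. These are matches to loose letter patterns only, which need not hold every preferred letter, and no binding was measured on the arrays.

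Values are the authors' log2 expression values. Medians of the 8 arrays ran between 5.27 and 5.66. On the first Stat3 probe set, OSM-treated STAT3-/- arrays read 9.17 and 8.70 for replicates 3 and 2, and untreated STAT3-/- arrays 7.81 and 8.08, all below the STAT3+/+ arrays at 10.11 to 11.94. On the second Stat3 probe set, the STAT3-/- array of OSM replicate 3 read 7.30, against 2.76 to 2.94 on the other STAT3-/- arrays and 9.80 to 12.57 on STAT3+/+ arrays. Of 15 fibroblast markers, 12 were at log2 5 or above on all arrays, among them the collagen gene Col1a1, while Vim and Thy1 stayed under 5. Other cell types were scarcely marked: 0 of 7 epithelial, 1 of 6 leukocyte (Cd14), 1 of 5 endothelial (Pecam1), 1 of 6 muscle (Myog) and 0 of 5 neural markers were at 5 or above throughout. Arrays of the same number but different groups correlated at 0.9325 to 0.977, and arrays of the same group but different number at 0.8694 to 0.9258. Probe sets at log2 5 or above on at least 2 arrays were tested, 6756 in all. They included 9 member probe sets of 8 genes.

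**Figure D1:**
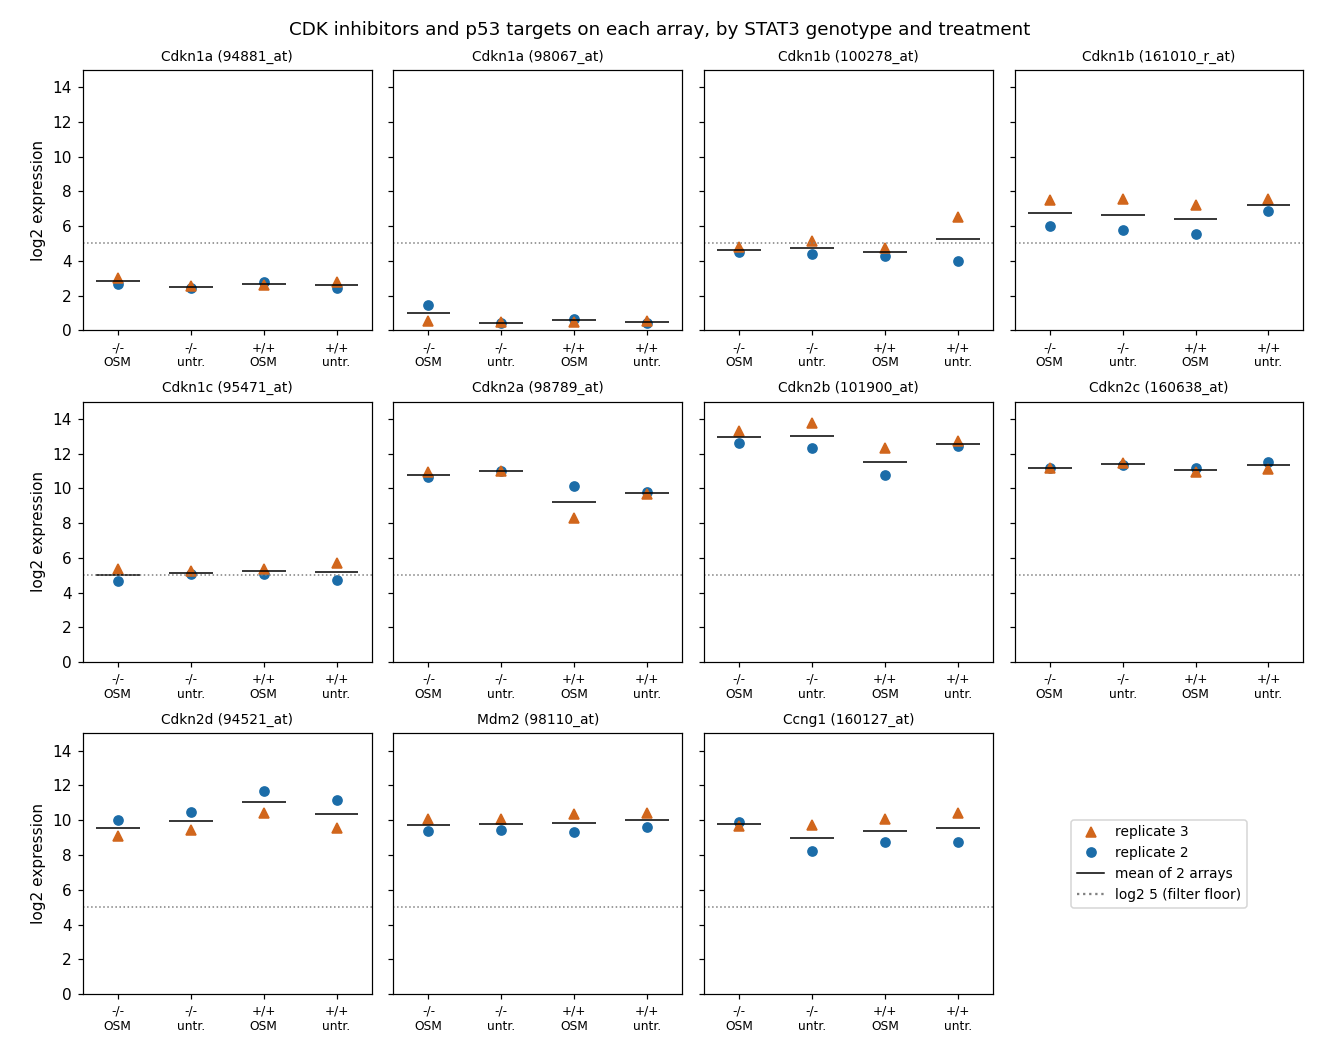
Log2 expression of each member probe set (vertical axes) on the 8 arrays, by group along the horizontal axes, with triangles for replicate 3, circles for replicate 2, lines for the mean of 2 arrays and a dotted line at log2 5. Both Cdkn1a probe sets lie under the dotted line on every array, and Cdkn2a is higher on every STAT3-/- array than on any STAT3+/+ array.

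Over both treatments, the largest line differences were those of 3 INK4 inhibitors, and no member passed the test. Standard errors, intervals and p-values for line and OSM differences come from a fit without the array number, unless a replicate block is named. Cdkn2a was the only member whose arrays did not overlap between the lines. Cdkn2b was higher and Cdkn2d lower in STAT3-/- cells on average, with overlapping arrays. Mdm2, Ccng1 and the Cip/Kip genes Cdkn1b and Cdkn1c had smaller differences, of -0.19 to -0.10 on the log2 scale. Without OSM the order was another: Ccng1 at -0.58 ± 0.80 and Cdkn1b at -0.56 ± 0.91 came after Cdkn2a at 1.27 ± 0.59, ahead of Cdkn2b at 0.47 ± 0.66 and Cdkn2d at -0.37 ± 0.75 (SE).

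Cdkn2a measured 10.92 and 10.66 in OSM-treated STAT3-/- cells (replicates 3 and 2) and 11.02 and 10.98 in untreated STAT3-/- cells. In STAT3+/+ cells it measured 8.32 and 10.16 with OSM and 9.66 and 9.79 untreated. All 4 STAT3-/- arrays were thus above all 4 STAT3+/+ arrays, and the lowest value was that of 1 OSM-treated STAT3+/+ array. The group means were 11.00 ± 0.02 in untreated STAT3-/- cells, 10.79 ± 0.18 in OSM-treated STAT3-/- cells, 9.73 ± 0.09 in untreated STAT3+/+ cells and 9.24 ± 1.31 in OSM-treated STAT3+/+ cells (SD, n = 2 each). Over both treatments the difference was 1.41 ± 0.42 (SE; 95% interval 0.39 to 2.44), with a limma adjusted p of 0.661. Without OSM it was 1.27 ± 0.59, with a limma adjusted p of 1. Cdkn2a was higher in STAT3-/- cells in each of the 4 pairs of equal treatment and number, by 1.36 and 1.19 untreated and by 2.61 and 0.50 with OSM. Of the 9 member probe sets it was the only one higher in all 4 pairs, a pattern that 9.98% of all tested probe sets had. With each array left out in turn the difference ran from 0.94 to 1.89. It was also the only one without overlap between the lines, against 5.45% of all tested. In bulk RNA, more cells with a transcript and more transcript per cell cannot be told apart. Whether the probe set reads the p16Ink4a transcript, the Arf transcript or both is not stated in these sources.

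Cdkn2b, which lies beside Cdkn2a on chromosome 4 and encodes p15Ink4b, measured 13.32 and 12.59 in OSM-treated STAT3-/- cells (replicates 3 and 2) and 13.74 and 12.34 in untreated ones. The STAT3+/+ arrays read 12.30 and 10.79 with OSM and 12.71 and 12.44 untreated. The lines overlapped, since the untreated STAT3-/- array of replicate 2 lay below both untreated STAT3+/+ arrays. The difference over both treatments was 0.94 ± 0.47 (SE; limma adjusted p = 0.964), and it was positive in 3 of 4 pairs. Of 5 listed neighbours of these genes on chromosome 4, 1 was tested: Klhl9, an adaptor of a ubiquitin ligase, differed by 0.01 ± 0.36 (SE; limma adjusted p = 0.999).

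Cdkn2d, the gene for p19Ink4d, had the opposite sign. It measured 9.11 and 10.00 in OSM-treated STAT3-/- cells (replicates 3 and 2) and 9.46 and 10.47 in untreated ones, against 10.41 and 11.67 in OSM-treated and 9.53 and 11.14 in untreated STAT3+/+ cells. The ranges overlapped between the lines, yet the STAT3-/- array was the lower one in all 4 pairs, by 0.07 to 1.68. Cdkn2d alone of the 9 member probe sets was lower in all 4 pairs, against 14.1% of all tested. The difference was -0.93 ± 0.53 (SE; limma adjusted p = 0.999).

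Cdkn2c, the gene for p18Ink4c, varied little. It measured 11.20 and 11.17 in OSM-treated STAT3-/- cells (replicates 3 and 2), 11.47 and 11.36 in untreated STAT3-/- cells, 10.96 and 11.19 in OSM-treated STAT3+/+ cells and 11.12 and 11.53 in untreated STAT3+/+ cells. The lines overlapped and differed by 0.10 ± 0.20 (SE; 95% interval -0.37 to 0.58).

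Of the Cip/Kip genes, Cdkn1a encodes p21, the inhibitor through which p53 arrests the cycle. Its 2 probe sets stayed under log2 5 on all 8 arrays and were not tested. The first read 2.54 to 2.99 on replicate 3 and 2.45 to 2.68 on replicate 2 in STAT3-/- cells, and 2.59 to 2.76 on replicate 3 and 2.42 to 2.76 on replicate 2 in STAT3+/+ cells. The second read 0.43 to 1.48 in STAT3-/- cells and 0.41 to 0.65 in STAT3+/+ cells, with its highest value on the OSM-treated STAT3-/- array of replicate 2. Values this low have no reliable order, and they do not show that the transcript was absent.

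Cdkn1b, the gene for p27, measured 7.50 and 5.99 on its brighter probe set in OSM-treated STAT3-/- cells (replicates 3 and 2) and 7.56 and 5.75 in untreated ones. In STAT3+/+ cells it measured 7.24 and 5.52 with OSM and 7.58 and 6.84 untreated. Replicate 3 was higher than replicate 2 in every group, and the lines overlapped, with a difference of -0.10 ± 0.64 (SE; 95% interval -1.67 to 1.47). Its dimmer probe set read 4.77 and 4.50, then 5.14 and 4.38, in OSM-treated and untreated STAT3-/- cells, and 4.73 and 4.30, then 6.51 and 4.01, in OSM-treated and untreated STAT3+/+ cells. That probe set differed by -0.19 ± 0.59 between the lines (SE). Cdkn1c, the gene for p57, lay near the floor: 5.38 and 4.69 in OSM-treated STAT3-/- cells, 5.26 and 5.05 in untreated STAT3-/- cells, 5.39 and 5.06 in OSM-treated STAT3+/+ cells and 5.69 and 4.73 in untreated STAT3+/+ cells. Its lines overlapped and differed by -0.12 ± 0.34 (SE; 95% interval -0.95 to 0.70).

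Mdm2 measured 10.09 and 9.40 in OSM-treated STAT3-/- cells (replicates 3 and 2) and 10.10 and 9.43 in untreated ones, against 10.39 and 9.35 in OSM-treated and 10.41 and 9.59 in untreated STAT3+/+ cells. The array number, not the line, separated these values, and the line difference was -0.18 ± 0.38 (SE; 95% interval -1.10 to 0.74). Ccng1, which encodes cyclin G1, measured 9.64 and 9.90 in OSM-treated STAT3-/- cells, 9.75 and 8.23 in untreated STAT3-/- cells, 10.05 and 8.75 in OSM-treated STAT3+/+ cells and 10.43 and 8.72 in untreated STAT3+/+ cells. Replicate 3 was higher in 3 groups but not in OSM-treated STAT3-/- cells. The lines overlapped, with a difference of -0.11 ± 0.57 (SE; 95% interval -1.49 to 1.27).

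Between the lines, 0 of 9 member probe sets passed a limma adjusted p of 0.05, against 0.0148% of all tested over both treatments and 0% without OSM. The 1 probe set that passed was of Cx3cl1, a chemokine gene singled out after its value was seen. At an unadjusted p under 0.05, 388 of the 6756 probe sets, that of Cdkn2a the only member among them, differed over both treatments, and 151 without OSM. With the array number as a replicate block, 0.429% of all tested passed over both treatments, and again no member did. Cdkn2a then had an adjusted p of 0.162, Cdkn2b of 0.151 and Cdkn2d of 0.108, each from limma. Their 95% intervals with the block all excluded 0, at 0.48 to 2.35 for Cdkn2a, 0.35 to 1.53 for Cdkn2b and -1.37 to -0.49 for Cdkn2d. They were the member probe sets among 1176 at an unadjusted p under 0.05 over both treatments. The blocked intervals of the other tested members included 0. For Cdkn1b on its brighter probe set it was -0.68 to 0.48, for Mdm2 -0.55 to 0.20 and for Ccng1 -0.99 to 0.78. For Cdkn1c it was -0.60 to 0.36 and for Cdkn2c -0.27 to 0.47. The median line difference of the 8 member genes was -0.10, against -0.04 over 5195 genes tested. In the pathway lists no gene passed between the lines either: 0 of 20 other p53 targets, 0 of 16 p53 regulators and relatives, 0 of 17 cyclins and CDKs, 0 of 7 RB and E2F genes and 0 of 26 proliferation genes. The genes with the smallest p over both treatments follow list by list, first without the block. They were the unconventional cyclin Ccng2 at -0.46 ± 0.21 and the transcription factor Twist1 at 1.42 ± 0.51 (SE). Then came the cyclin Ccnd1 at 1.31 ± 0.67 and the E2F family gene E2f8 at 0.79 ± 0.50 (SE). The last was the replication factor subunit Rfc4 at 0.63 ± 0.46 (SE). With the block they were the death receptor gene Fas at -1.72 ± 0.25, Twist1 at 1.42 ± 0.23 and Cdk2 at -0.42 ± 0.17 (SE). Rbl2 at 0.96 ± 0.33 and Rfc4 at 0.63 ± 0.20 followed, and none passed (SE). Without OSM and without the block they were Apaf1 at -0.69 ± 0.41, Crebbp at -1.40 ± 0.57 and Cdk2 at -0.54 ± 0.31 (SE). E2f1 at -0.52 ± 0.33 and Rfc4 at 0.53 ± 0.66 followed, again none passing (SE).

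**Figure D2:**
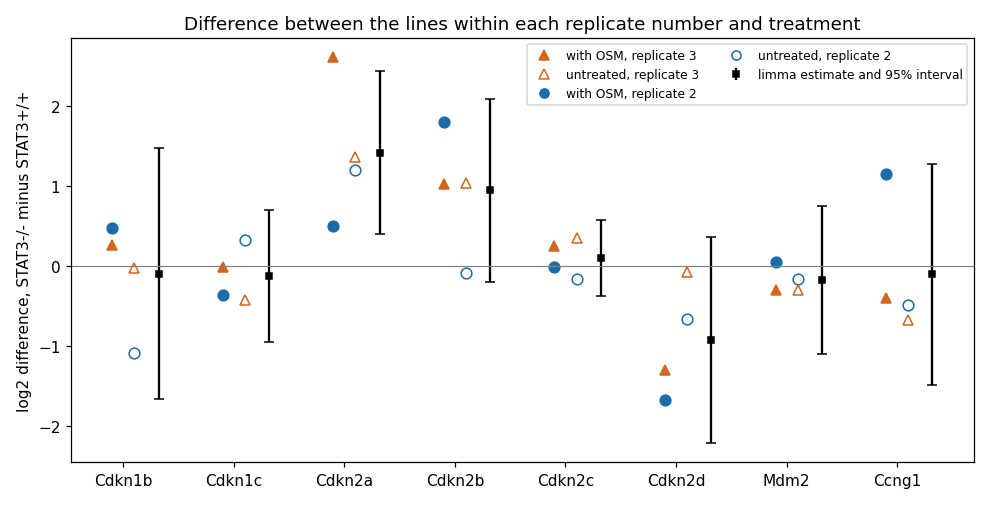
Log2 difference, STAT3-/- minus STAT3+/+, of the 8 tested member genes (horizontal axis) within each number and treatment, filled with OSM and open without, and the limma estimate over both treatments with its 95% interval (squares). In this fit, which has no replicate block, only the interval of Cdkn2a, from 0.39 to 2.44, lies wholly on 1 side of 0. With the block those of Cdkn2b (0.35 to 1.53) and Cdkn2d (-1.37 to -0.49) do as well, and none of the 3 passes the limma adjusted threshold.

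OSM for 30 minutes changed no member past the threshold in either line. In STAT3-/- cells the estimates ran from -0.41 for Cdkn2d to 0.78 for Ccng1, and in STAT3+/+ cells from -1.03 for Cdkn2b to 0.70 for Cdkn2d. Mdm2 differed least in STAT3-/- cells, at -0.02. Untreated arrays of a line serve only that line, so the 2 responses share no arrays.

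Cdkn2b differed between OSM and no treatment by -0.42 and 0.24 in STAT3-/- cells (replicates 3 and 2) and by -0.40 and -1.65 in STAT3+/+ cells. The STAT3+/+ OSM arrays both lay below the untreated ones, and the estimate was -1.03 ± 0.66 there (SE; 95% interval -2.64 to 0.59). Cdkn2d was lower with OSM by 0.36 and 0.47 in STAT3-/- cells (replicates 3 and 2) and higher by 0.87 and 0.53 in STAT3+/+ cells. The signs were thus opposite between the lines, and the difference of the 2 responses was -1.12 ± 1.06 (SE), with a limma adjusted p of 1. Cdkn2a differed by -0.09 and -0.32 in STAT3-/- cells and by -1.35 and 0.37 in STAT3+/+ cells, where the replicates disagreed in sign.

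Cdkn2c was lower with OSM in all 4 pairs, by 0.27 and 0.19 in STAT3-/- cells (replicates 3 and 2) and by 0.17 and 0.34 in STAT3+/+ cells. Mdm2 was also lower in all 4 pairs, by 0.01 and 0.03 in STAT3-/- cells and by 0.02 and 0.25 in STAT3+/+ cells. These were 2 of the 9 member probe sets, while 29% of all tested moved the same way in all 4 pairs. For Cdkn2c the estimate was -0.23 ± 0.28 in STAT3-/- cells and -0.25 ± 0.28 in STAT3+/+ cells (SE). For Mdm2 the 95% interval without the block was -1.33 to 1.28 in STAT3-/- cells and -1.44 to 1.18 in STAT3+/+ cells. Both reach past the doubling that 1 log2 unit stands for. With the replicate block the intervals were -0.55 to 0.51 in STAT3-/- cells and -0.67 to 0.40 in STAT3+/+ cells, which do not reach it.

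Ccng1 differed by -0.11 and 1.66 in STAT3-/- cells (replicates 3 and 2) and by -0.38 and 0.03 in STAT3+/+ cells. The estimate of 0.78 ± 0.80 in STAT3-/- cells (SE) therefore came from replicate 2. Cdkn1b, on its brighter probe set, differed by -0.06 and 0.24 in STAT3-/- cells and by -0.34 and -1.32 in STAT3+/+ cells. Cdkn1c differed by 0.12 and -0.35 in STAT3-/- cells and by -0.30 and 0.33 in STAT3+/+ cells, with replicates of opposite sign in both lines.

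For OSM, 0 of 9 member probe sets passed in STAT3-/- cells and 0 in STAT3+/+ cells by limma, against 0% of all tested in each line. At an unadjusted p under 0.05 there were 138 probe sets in STAT3-/- cells and 126 in STAT3+/+ cells, none of a member, in the fit without the block. With the replicate block, 0.0296% of all tested passed in STAT3-/- cells and 0.0148% in STAT3+/+ cells, no member among them. The block narrowed the intervals of 3 members in STAT3+/+ cells so that they excluded 0, to -1.86 to -0.19 for Cdkn2b, 0.08 to 1.32 for Cdkn2d and -1.65 to -0.0051 for Cdkn1b on its brighter probe set. Their limma adjusted p was 0.555, 0.604 and 0.691, in that order, and 485 of all tested probe sets had an unadjusted p under 0.05 there. In STAT3-/- cells no member's interval excluded 0 with the block. For the difference of the responses 0% passed with or without the block, and 29 probe sets, none of a member, had an unadjusted p under 0.05 without it. With it, 248 did, and the interval of Cdkn2d was -1.997 to -0.239 (limma adjusted p = 0.913). The median change of the 8 member genes was -0.10 in STAT3-/- cells, against 0.01 over all genes tested, and -0.21 in STAT3+/+ cells, against -0.06. None of the pathway genes passed. Without the block, Epha2, a receptor kinase gene, had the smallest p among other p53 targets in STAT3-/- cells, at 1.93 ± 0.75 (SE). In STAT3+/+ cells the stress gene Sesn1 had it, at -1.51 ± 0.42 (SE). In STAT3-/- cells the others were Twist1 at 1.13 ± 0.73, Cdk7 at 0.44 ± 0.36, E2f1 at -0.21 ± 0.33 and the nuclease gene Fen1 at 1.16 ± 0.91 (SE). In STAT3+/+ cells they were Prkdc at -1.30 ± 0.76, Ccnd1 at -1.27 ± 0.94, E2f1 at -0.71 ± 0.33 and the spindle checkpoint gene Mad2l1 at -0.42 ± 0.44 (SE).

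**Figure D3:**
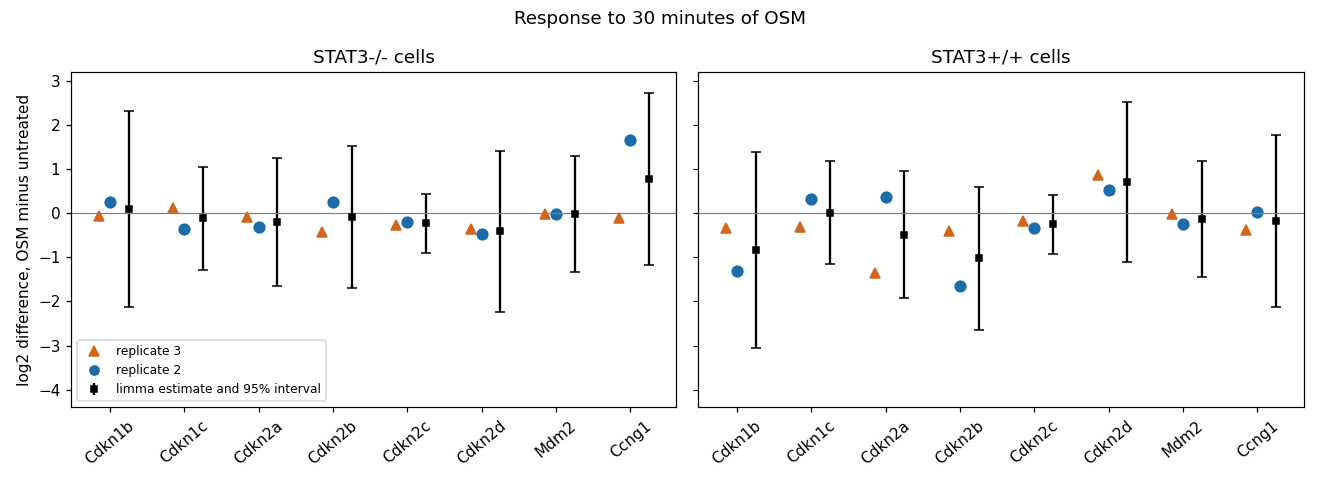
Log2 difference, OSM minus untreated, of the 8 tested member genes (horizontal axes) in STAT3-/- cells (left) and STAT3+/+ cells (right), per replicate number (triangles 3, circles 2), with the limma estimate and its 95% interval (squares). Every interval of this fit, which has no replicate block, includes 0, and the points of Cdkn2c and Mdm2 lie below 0 in all 4 pairs.

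More members passed between the array numbers than between the lines or with OSM. Cdkn1b, Mdm2 and Cdkn2b were higher and Cdkn2d was lower in replicate 3 than in replicate 2, each past the threshold. That is 4 of the 9 member probe sets, against 41.1% of all tested, with 3 higher, against 23.4%, and 1 lower, against 17.7%. The share is near that of all probe sets, so it says nothing particular to these genes. Each number holds all 4 groups, and the test fitted the number beside the 4 group means.

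Cdkn1b was higher in replicate 3 by 1.51 and 1.81 in OSM-treated and untreated STAT3-/- cells and by 1.72 and 0.74 in OSM-treated and untreated STAT3+/+ cells. The estimate was 1.44 ± 0.23 (SE; limma adjusted p = 0.00887). Its dimmer probe set gave 0.99 ± 0.40, which did not pass (SE; limma adjusted p = 0.098). That probe set reached log2 5 only on the untreated arrays of replicate 3, at 6.51 and 5.14. Mdm2 was higher by 0.69 and 0.67 in OSM-treated and untreated STAT3-/- cells and by 1.04 and 0.81 in OSM-treated and untreated STAT3+/+ cells, an estimate of 0.80 ± 0.15 (SE; limma adjusted p = 0.0127).

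Cdkn2d was lower in replicate 3 by 0.89 and 1.01 in OSM-treated and untreated STAT3-/- cells and by 1.27 and 1.61 in OSM-treated and untreated STAT3+/+ cells. Its estimate was -1.19 ± 0.18 (SE; limma adjusted p = 0.00733). Cdkn2b was higher by 0.74 and 1.40 in OSM-treated and untreated STAT3-/- cells and by 1.52 and 0.27 in OSM-treated and untreated STAT3+/+ cells, with an estimate of 0.98 ± 0.24 (SE; limma adjusted p = 0.0247). These INK4 genes thus had opposite signs. The call of Cdkn2b was lost without either array of untreated STAT3-/- cells or of OSM-treated STAT3+/+ cells (limma adjusted p 0.0844 to 0.0908). That of Mdm2 was lost without either array of either STAT3+/+ group (limma adjusted p 0.0564 to 0.0644).

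Ccng1 was at 1.07 ± 0.36 (SE; limma adjusted p = 0.0594), with -0.25 and 1.52 in OSM-treated and untreated STAT3-/- cells and 1.30 and 1.71 in OSM-treated and untreated STAT3+/+ cells. Without either OSM-treated STAT3-/- array it passed, at 1.51 (limma adjusted p 0.00998 to 0.01). Cdkn1c was at 0.54 ± 0.19 (SE; limma adjusted p = 0.0701), higher in replicate 3 in every group. Cdkn2a at -0.42 ± 0.38 and Cdkn2c at -0.13 ± 0.15 did not pass (SE; limma adjusted p = 0.396 and 0.514). For Cdkn2a the value rested on OSM-treated STAT3+/+ cells, where replicate 3 was lower by 1.85. Both probe sets of Cdkn1b and those of Cdkn1c and Mdm2 had all replicate 3 arrays above all replicate 2 arrays, 4 of 9, while 38.5% of all tested had no overlap in either direction. The dimmer probe set of Cdkn1b entered the test only through replicate 3, the number in which it was higher. Without the OSM-treated STAT3-/- array of replicate 3, on which the second Stat3 probe set stood apart, the 4 calls held.

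Genes of the same pathways also differed between the numbers, in lists chosen with earlier results of these data known. Of 5195 genes tested, 22.6% were higher and 17.7% lower in replicate 3, with a median of 0.08. Among 20 other p53 targets 9 were higher and 2 lower, with a median of 0.69, beside 0.67 for the 8 member genes. Fas, a death receptor gene, was higher by 2.12 ± 0.25, Fbxw7, a ubiquitin ligase subunit, by 1.20 ± 0.22 and Tob1, an antiproliferative gene, by 1.25 ± 0.24 (SE). Phlda3, an Akt inhibitor gene, was at -0.79 ± 0.13 (SE). Among 16 p53 regulators and relatives 3 were higher and 4 lower, with a median of 0.33. The checkpoint kinase gene Chek2 was at -1.75 ± 0.21 and the kinase gene Hipk2 at -1.19 ± 0.23 (SE). Chek2 was under log2 5 on every replicate 3 array, at 3.86 to 4.34, so it entered the test only through replicate 2. The DNA damage kinase gene Atm was at 1.10 ± 0.19 and Dmtf1, an activator of Arf, at 1.15 ± 0.15 (SE). Dmtf1 lay near the floor, at 4.79 to 5.14 on replicate 2. Its other probe set stayed under 5 on all arrays and was higher in replicate 3 only in untreated STAT3+/+ cells.

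Cyclins, CDKs and proliferation genes had negative medians. Of 17 cyclins and CDKs 4 were higher and 7 lower, with a median of -0.85. Cdk4, a kinase that INK4 proteins bind, was at -1.58 ± 0.16 on its brighter probe set (SE). Its other probe set differed far less, at 11.36 to 11.66 on replicate 3 and 11.42 to 11.83 on replicate 2. There replicate 3 was the lower one in every group, but the numbers overlapped. The mitotic cyclin Ccnb2 was at -2.82 ± 0.31 and the phosphatase gene Cdc25c at -2.45 ± 0.34 (SE). Ccnc was at 1.40 ± 0.21 (SE). Of 7 RB and E2F genes 2 were higher and 0 lower: Rbl2 at 1.70 ± 0.33 and Rb1 at 1.62 ± 0.37, both brakes on E2F (SE). Rb1 lay near the floor on replicate 2, at 4.41 to 5.65. Its other probe set, at 3.10 to 3.69, stayed under log2 5 on all arrays and was higher in replicate 3 in every group. Of 26 proliferation genes 0 were higher and 18 lower, with a median of -1.92. Replication genes Mcm7 at -1.93 ± 0.16 and Mcm2 at -1.90 ± 0.22 and mitotic genes Cdc20 at -2.84 ± 0.43 and Plk1 at -2.52 ± 0.39 were examples (SE). Fibroblast markers had 2 higher and 2 lower of 13 tested. Of other cell types, the endothelial Kdr (1.99 ± 0.38), the neural Nefl (0.95 ± 0.20) and the muscle Myog (-1.46 ± 0.24) passed (SE). Of these lists, 3 of 5 endothelial, 2 of 5 neural and 5 of 6 muscle markers were under log2 5 on all arrays, and 1, 0 and 1 were at or above it throughout. Kdr and Nefl were under 5 on every replicate 2 array, at 4.30 to 4.81 and 4.01 to 4.58. Both thus entered the test only through replicate 3, where they were higher. The part of these marker shifts in the members' differences was not tested.

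**Figure D4:**
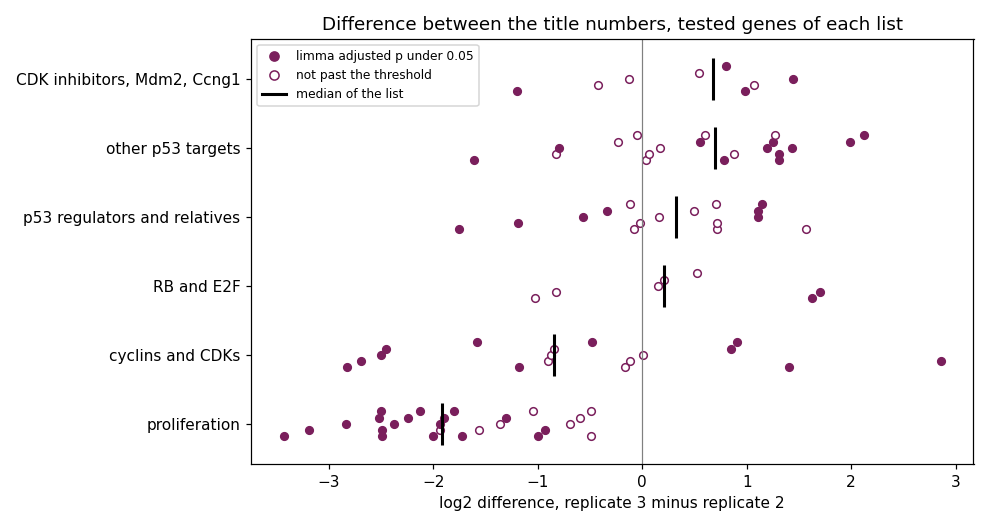
Log2 difference, replicate 3 minus replicate 2, of each tested gene (horizontal axis) in the members and 5 pathway lists, filled where the limma adjusted p was under 0.05, with a bar at each list's median. The medians are 0.67 for the members, 0.69 for other p53 targets and -1.92 for proliferation genes.

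The tested gene whose values ran most like each member's over the 8 arrays was found among 5194 genes by Pearson's r, as a description, since these arrays share numbers and groups. It was Chgb for Cdkn1b (r = 0.9927), Nid2 for Mdm2 (0.99), Tob1 for Cdkn2b (0.9881), Zfp942 for Ccng1 (0.9844) and Ptpn9 for Cdkn2d (0.9827). For the others it was Dync1i1 for Cdkn2c (0.9698), Ttc17 for Cdkn1c (0.9666) and Tmem37 for Cdkn2a (0.9362). With each number's mean taken off, Chgb stayed nearest to Cdkn1b (0.9828) and Tob1 to Cdkn2b (0.9829). The nearest gene was then Rfc4 for Cdkn2a (0.9761), Siva1 for Cdkn2c (0.9839), Znhit1 for Cdkn2d (0.9752), Rpap1 for Mdm2 (0.9798), Pdcl3 for Ccng1 (0.9909) and Fbxo45 for Cdkn1c (0.9039). Tob1, the antiproliferative gene, measured 12.20 and 11.36 in OSM-treated STAT3-/- cells (replicates 3 and 2), 12.60 and 11.18 in untreated STAT3-/- cells, 11.13 and 9.16 in OSM-treated STAT3+/+ cells and 11.86 and 11.09 in untreated STAT3+/+ cells. Like Cdkn2b, it was lowest on the OSM-treated STAT3+/+ array of replicate 2 and highest on the untreated STAT3-/- array of replicate 3.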

How the data were processed

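Biotin-labelled cRNA from total RNA was put on Affymetrix arrays, per the labels' protocols. The authors deposited 1 log2 expression value per probe set and array, and the submitters' processing notes name affy and GCRMA, with no version. GCRMA gives dim probe sets low, similar values. Of 12488 rows, 66 controls were set aside; 10833 probe sets had 1 symbol in the platform annotation, 396 several and 1193 none, and 10817 gene IDs matched RefSeq's GRCm38.p6 table, used for names.

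Groups came from the titles. Tests used limma 3.58.1 (R 4.3.3; lmFit, eBayes with trend, 8 arrays, 4 group means, 4 residual degrees of freedom, two-sided), with Benjamini-Hochberg adjustment over the 6756 probe sets at log2 5 or above on at least 2 arrays. The threshold was an adjusted p of 0.05. The number difference added the number to the model, leaving 3 degrees of freedom. The brightest kept probe set stood for a gene. The members and lists were chosen with earlier results of these data known. The named genes are Stat3, every member, up to 4 passing genes per list and comparison with the smallest p (or the 1 smallest p where none passed), and the gene most like each member. Cx3cl1 and the markers named by their level (Col1a1, Vim, Thy1, Cd14, Pecam1, Myog) are outside that rule, picked with their values known.

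Replicate numbers were checked for pairing: differences between replicates 3 and 2 correlated between groups at 0.589 to 0.9106 over the tested probe sets. The data thus pointed to arrays paired by number. The main tests between the lines and with OSM nevertheless had no block, so the shift between the numbers adds to their standard errors. For these comparisons the replicate block was an alternative fit. The replicate block lowered the median standard error for 1 treatment to 0.283, against 0.486 without it. The script was tested on simulated data. The other settings tried were no filter, a filter at log2 7, eBayes without trend, renewed quantile normalization, values under 5 set to 5, the replicate block, the other probe set, and each array left out.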

Additional observations from a re-analysis of the deposited data

Results flagged for a closer look

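Some members differed in sign between groups, and each value here is a difference of 2 such effects in log2 units. The OSM response of Cdkn2d was negative in both STAT3-/- pairs and positive in both STAT3+/+ pairs, a gap of -1.12, which did not pass limma's test of the difference itself. Cdkn1b, on its brighter probe set, was higher in STAT3-/- than in STAT3+/+ cells in both OSM pairs and lower in both untreated pairs, a gap of 0.92, which did not pass that test either. Its dimmer probe set was higher in both OSM pairs too, but differed by -1.37 and 0.37 in the untreated pairs (replicates 3 and 2). Cdkn2c was higher in replicate 3 than in replicate 2 in both STAT3-/- groups and lower in both STAT3+/+ groups, a gap of 0.39. The line difference of Cdkn2c was positive in both pairs of replicate 3 and negative in both pairs of replicate 2. Its gap is by arithmetic the same 0.39. For Cdkn2a the difference between replicates 3 and 2 was positive in both STAT3-/- groups and negative in both STAT3+/+ groups, a gap of 1.13, most of it from OSM-treated STAT3+/+ cells. The gaps of Cdkn2c and Cdkn2a between numbers were not tested.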

How the results depend on the processing

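No member passed between the lines, with OSM or for the difference of the responses under any setting. Values are log2 differences unless they count probe sets. With the replicate block 29 probe sets passed between the lines over both treatments, 2 for OSM in STAT3-/- cells and 1 in STAT3+/+ cells. Without the filter 3 passed between the lines and 7210 of 12422 between the numbers. With values under 5 set to 5, 1 passed for OSM in STAT3-/- cells. Leaving out 1 array, with the block kept and a lone array assumed to vary like the others, gave 0 to 1 without OSM between the lines, 0 to 5 over both treatments, 0 to 1 for OSM in STAT3-/- cells and 1223 to 2599 between the numbers. Cdkn1c near the floor changed sign with values under 5 set to 5, to 0.035 for OSM in STAT3-/- cells, -0.12 in STAT3+/+ cells and 0.16 for the difference of the responses. The response difference of Cdkn2c was -0.020 after quantile normalization, and Cdkn1b on its dimmer probe set was -0.12 for OSM in STAT3-/- cells. For these changes of sign and of counts the cause was not tested.

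Leaving out 1 array also turned signs of small differences. Without OSM between the lines, Cdkn2b ran from -0.0024 to 0.95, Cdkn2c from -0.10 to 0.28 and Cdkn1c from -0.33 to 0.22. Over both treatments, Ccng1 ran from -0.55 to 0.33, Cdkn1b from -0.33 to 0.14 and Cdkn1c from -0.26 to 0.015. For OSM in STAT3-/- cells, Cdkn2b ran from -0.37 to 0.19, Cdkn2a from -0.66 to 0.25, Mdm2 from -0.11 to 0.069, Ccng1 from -0.10 to 1.66, Cdkn1b from -0.15 to 0.33 and Cdkn1c from -0.34 to 0.11. For OSM in STAT3+/+ cells, Cdkn2a ran from -1.44 to 0.46, Mdm2 from -0.29 to 0.023, Ccng1 from -0.60 to 0.25 and Cdkn1c from -0.26 to 0.29. For the difference of the responses, Cdkn2c ran from -0.16 to 0.21, Cdkn2a from -0.67 to 1.23, Mdm2 from -0.044 to 0.27 and Cdkn1c from -0.41 to 0.15. Between the numbers, Cdkn2a ran from -0.65 to 0.053. The number calls of Cdkn1b and Cdkn2d held without each array in turn. Ccng1 passed between the numbers without the filter (adjusted p 0.0454), and Cdkn1c without the filter (0.0315) and with values under 5 set to 5 (0.0429). With 2 arrays a group, the number of arrays limits the precision.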
